A study of Mus musculus with 8 samples.

Results

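Hematopoietic stem cells (HSCs) of anemic mice were compared between spleen and bone marrow, with the treatment equal in both tissues. All 5 libraries from treated mice entered the comparison, out of 8 in the series: 3 of bone marrow HSCs (PHZ BM HSC) and 2 of spleen HSCs (PHZ SP HSC). The mice were adult C57BL/6 animals of WT genotype that received phenylhydrazine (PHZ), a compound that lyses red blood cells, by intraperitoneal injection of 60 mg/kg on 2 consecutive days, and HSCs were sorted on day 3 after the last injection. The remaining 3 libraries, of bone marrow HSCs from C57BL/6 WT mice labelled PBS (control BM HSC), serve only as a reference level here. Untreated spleen was not analysed here. HSCs were sorted as lineage-negative, Sca-1+ c-kit+ CD150+ CD48-/low cells. Marrow was flushed or crushed and spleens were smashed between slides, and the methods state an enrichment on c-kit beads before sorting for bone marrow cells, without naming spleen cells there, so tissue and cell preparation cannot be told apart. Nothing in the labels ties a library to an animal, so the p-values below measure the spread between these libraries, which may be technical.

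HSCs reside mainly in bone marrow, where most of them are quiescent. When red cells are lost in the mouse, the spleen becomes an additional site of blood formation, and progenitors there expand under erythropoietin, glucocorticoids and local signals and pass through rapid divisions while they switch on globin, membrane and heme genes. Immediate early genes such as Fos and Egr1 are transcribed within minutes of a growth factor or stress signal and their transcripts decay quickly. Genes of DNA replication and mitosis follow the cell cycle, and a cell population with more dividing cells holds more of their RNA.

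Expression is given in FPKM, the number of fragments from a gene relative to its length in kilobases and to library depth. A gene was tested if it reached 1 FPKM in at least 2 of the 5 libraries, which held for 10827 of the 16136 genes listed in both tables. Differences are PHZ SP HSC minus PHZ BM HSC on the log2(FPKM + 1) scale, which understates the change of low genes. A gene was called at an adjusted p below 0.05 in limma. The 5 libraries held 9240149 to 13201359 reads worked back from the FPKM, of which 44.0% to 48.6% lay in the ribosomal RNA precursor gene Rn45s, and between 11814 and 12271 genes had at least 10 reads. Across the genes tested, the marrow libraries correlated with each other at r = 0.955 to 0.975 and marrow with spleen libraries at 0.912 to 0.933, whereas both spleen libraries correlated with each other only at 0.929, genes not being independent replicates. Of the 6 pairs across tissues, PHZ SP HSC replicate 2 with PHZ BM HSC replicate 3 (0.933) was the single pair above that of the spleen libraries. PHZ SP HSC replicate 1 was the library that stood apart most often, lying more than 1 log2 unit above all others in 57 genes and below all others in 134. In bulk RNA, fewer cells of a type and less RNA per cell cannot be told apart.

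Among the genes called lower in spleen HSCs of anemic mice than in their marrow HSCs were immediate early genes such as Fos, Junb and Zfp36, and among those called higher were genes of mitosis, red cell proteins, and S100 and cytoskeletal proteins. In all, 154 genes were called, 98 of them higher and 56 lower in PHZ SP HSC. Among genes tested, 0.905% were called higher and 0.517% lower, and these shares are the background for every list below. Without adjustment 1891 genes had p below 0.05. The median difference over all genes tested was -0.02, so the genes tested were centred near 0. In each of the 154 genes both spleen libraries lay on one side of all 3 marrow libraries, which held for 17.7% of all genes tested in the upward and 17.4% in the downward direction. The called genes that were higher had a median difference of 1.73 with a range of 0.94 to 3.40, and those that were lower had a median size of 1.52 with a range of 0.81 to 3.89. The count depended on the settings and on single libraries. With no filter on low values limma called 0 of 16136 genes, with 2209 at an unadjusted p below 0.05, and voom on the recovered reads called 95 higher and 25 lower. The total was 32, 61 and 161 without PHZ BM HSC replicates 1, 2 and 3, and 45 and 196 without PHZ SP HSC replicates 1 and 2. Without a spleen library most calls were lower rather than higher, with 20 higher and 25 lower without replicate 1 and 87 higher and 109 lower without replicate 2.

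**Figure D1:**
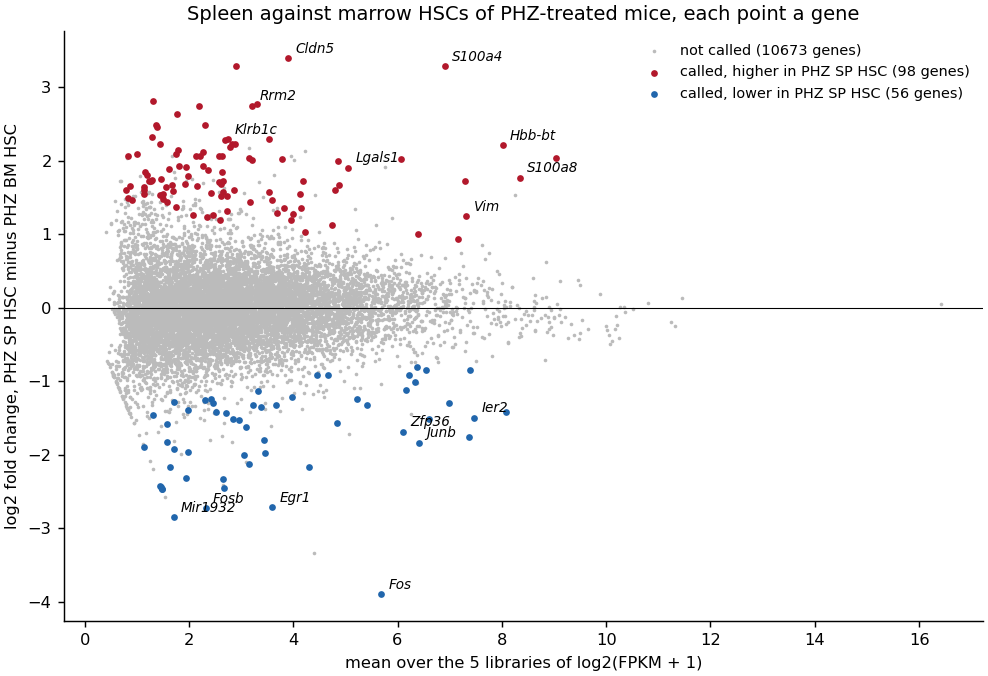
The log2 fold change between spleen and marrow HSCs of PHZ-treated mice is plotted against the mean level over the 5 libraries, both on the log2(FPKM + 1) scale, with each of the 10827 genes tested as a point. The 98 genes called higher in spleen and the 56 called lower lie on both sides of a cloud centred near 0, with Fos lowest at -3.89 and Cldn5 highest at 3.40.

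Immediate early transcription factors had the lowest median difference of the 20 gene lists. Of 24 genes in a list of AP-1 and other immediate early factors, 19 were tested, 7 were called lower and none higher. The median difference of the list was -1.02, against -0.02 over all genes, and in 14 of the 19 both spleen libraries lay below every marrow library. Fos, which pairs with Jun proteins to form the AP-1 transcription factor, is on chromosome 12 from 85473890 to 85477274 (mm10). Its level was 152, 140.5 and 160.3 FPKM in the 3 marrow libraries and 6.09 and 13.7 FPKM in the spleen libraries. The groups did not overlap, and the highest spleen library lay far below the lowest marrow library. The difference was -3.89 (SE 0.28, n = 3 and 2), with an adjusted p of 0.00381 in limma.

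The promoters of 4 genes are shown here because each gene was called and belongs to a list with several calls: Fos and Zfp36 to the immediate early lists, Ube2c to the mitosis list and Hbb-bt to the red cell list. Each sequence holds the 250 bases before the annotated start of transcription, from RefSeq (GRCm38.p6), in the direction of the gene. Capitals mark TGACG (the core of a cAMP response element) and TATAA in Fos, the CArG box bound by serum response factor in Zfp36, the CCAAT box and TTTGAA (the cell cycle homology region) in Ube2c. In Hbb-bt they mark CACCC as well as the motifs CCAAT, from the NF-Y box, and the TATA box. Each motif was searched on both strands, and a match is a description of these letters only.
Fos, chr12:85473640-85473889, + strand: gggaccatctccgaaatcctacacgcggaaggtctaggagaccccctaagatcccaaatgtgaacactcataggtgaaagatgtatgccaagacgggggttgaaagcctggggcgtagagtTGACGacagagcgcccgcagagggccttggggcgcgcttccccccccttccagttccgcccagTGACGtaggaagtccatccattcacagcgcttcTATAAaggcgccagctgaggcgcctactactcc
Zfp36, chr7:28379229-28379478, - strand: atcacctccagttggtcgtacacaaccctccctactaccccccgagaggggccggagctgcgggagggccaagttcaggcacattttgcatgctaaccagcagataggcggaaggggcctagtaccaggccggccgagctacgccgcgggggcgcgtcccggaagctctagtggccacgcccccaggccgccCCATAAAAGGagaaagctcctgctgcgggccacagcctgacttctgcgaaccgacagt
Ube2c, chr2:164769679-164769928, + strand: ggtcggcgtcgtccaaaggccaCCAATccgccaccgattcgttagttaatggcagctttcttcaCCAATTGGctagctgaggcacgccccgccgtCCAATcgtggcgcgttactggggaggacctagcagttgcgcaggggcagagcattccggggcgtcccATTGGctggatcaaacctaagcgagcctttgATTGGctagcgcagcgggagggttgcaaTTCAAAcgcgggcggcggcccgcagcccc
Hbb-bt, chr7:103813924-103814173, - strand: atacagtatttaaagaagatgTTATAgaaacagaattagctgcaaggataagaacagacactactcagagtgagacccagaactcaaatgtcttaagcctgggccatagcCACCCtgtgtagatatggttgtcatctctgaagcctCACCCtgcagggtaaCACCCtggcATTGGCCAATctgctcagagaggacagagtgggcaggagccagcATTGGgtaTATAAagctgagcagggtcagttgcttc

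In the Fos sequence, TGACG began at positions -129 and -66 and TATAA at -33, counted back from the start of transcription. The CArG box of Zfp36 began at -58. Over the immediate early factor list, 10 of 17 promoters held TGACG (58.8%), compared with 27.7% of the 10960 promoters of all genes tested. For the list of feedback regulators the count was 7 of 20. A CArG box was held by 2 of 20, against 0 of 17 in the factor list and 123 of all 10960. The search covered only the 250 bases before each start, so sites further upstream were not counted. Some genes have more than 1 promoter in the RefSeq table, and 8683 of the 10827 genes tested had at least 1.

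The other members of the AP-1 group differed in size. Junb was at 148, 136 and 138 FPKM in marrow and 44.1 and 34.0 FPKM in spleen, a difference of -1.83 (SE 0.16, adjusted p = 0.00588). Fosb was at 9.06, 10 and 9.905 FPKM in marrow and 0.947 and 0.328 FPKM in spleen, a difference of -2.73. Jund was at 11.8, 12.8 and 12.7 FPKM in marrow and 3.33 and 3.38 FPKM in spleen, a difference of -1.62. All 3 encode partners in AP-1 dimers and had no overlap between the tissues. Jun itself was at 145, 117 and 75.1 FPKM in marrow and 54.0 and 52.0 FPKM in spleen, and this difference of -1.02 missed the threshold with an adjusted p of 0.099. Egr1, a zinc finger factor also known for holding HSCs in quiescence and in the marrow, was at 33.9, 19.5 and 22.4 FPKM in marrow and 4.09 and 2.001 FPKM in spleen, a difference of -2.71 (adjusted p = 0.00865). It was also the single called gene among 39 of the HSC identity list.

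Ier2 and Ier3, early response genes of less defined function, were called lower as well, with differences of -1.49 and -1.51. Ier2 had the highest level of the group, with 310.4, 268 and 231 FPKM in marrow and 103 and 86.3 FPKM in spleen. Not every early gene followed. The Kruppel-like factor Klf6 was at 17.2 to 19.7 FPKM in marrow and 18.4 and 24.7 FPKM in spleen, and the orphan nuclear receptor Nr4a1 at 3.69 to 5.84 FPKM and 5.28 and 4.11 FPKM, so that both overlapped between tissues. Myc, a driver of cell growth, was at 79.0, 90.2 and 129 FPKM in marrow and 41.6 and 61.75 FPKM in spleen, without passing the test (adjusted p = 0.1145).

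Some of the negative regulators that immediate early signalling itself induces were called lower as well. Of 24 genes in this list, all tested, 5 were called lower and none higher, 5 lay above 0, and in 12 both spleen libraries lay below every marrow library, with a median difference of -0.56. Zfp36 encodes tristetraprolin, which binds AU-rich elements and speeds the decay of early transcripts. It was at 119, 119.7 and 91.8 FPKM in marrow and 39.0 and 28.4 FPKM in spleen, a difference of -1.69 (SE 0.20, adjusted p = 0.0099). Its relative Zfp36l2 fell by 0.91. Ppp1r15a, which directs a phosphatase to the translation factor eIF2 alpha, was at 50.4, 44.8 and 35.9 FPKM in marrow and 12.3 and 15.9 FPKM in spleen. Dusp1 and Dusp2, phosphatases that switch off MAP kinases, differed by -1.01 and -1.29. Dusp6, which acts on ERK in particular, was at 15.7 to 17.9 FPKM in marrow and 17.7 and 11.4 FPKM in spleen, and Nfkbia, the inhibitor of NF-kappaB, at 83.7 to 94.5 FPKM and 88.7 and 65.0 FPKM, both with overlap.

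The calls in the factor list did not rest on 1 library. Between 5 and 8 of its members were called lower when any of the 5 libraries was left out, and Fos, Junb, Fosb, Egr1 and Ier2 were called in all 5 such fits. The feedback list was less steady, with 1, 2 and 5 calls without PHZ BM HSC replicates 1, 2 and 3 and 1 and 2 calls without PHZ SP HSC replicates 1 and 2. For reference, with all tables on a single scale, the summed FPKM of the 19 factors was 962 to 1048 in PHZ BM HSC, 338 and 370.0 in PHZ SP HSC and 190.4 to 256 in control BM HSC. Spleen HSCs of anemic mice thus held a sum between those of the marrow groups. Fos was at 1.11, 1.98 and 2.91 FPKM in control BM HSC, below both spleen libraries. These control levels were not tested against spleen here.

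A related list of glucocorticoid targets and cell cycle inhibitors had no calls among 19 genes tested, and a median of -0.25. The nearest to the threshold was Ddit4, an inhibitor of mTORC1 that glucocorticoids induce. It was at 18.2, 16.0 and 18.9 FPKM in marrow and 3.16 and 8.10 FPKM in spleen, a difference of -1.60 with an adjusted p of 0.0506. Tsc22d3, a classic glucocorticoid target, was at 123, 125 and 133 FPKM in marrow and 73.8 and 86.8 FPKM in spleen (adjusted p = 0.0743). In both genes the spleen libraries lay below all marrow libraries, and in neither did the difference pass the test. Cdkn1a, which encodes the inhibitor p21, was at 0.77, 0.823 and 10.7 FPKM in marrow and 4.41 and 4.81 FPKM in spleen, so that marrow replicate 3 lay above both spleen libraries and the other marrow libraries below them.

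**Figure D2:**
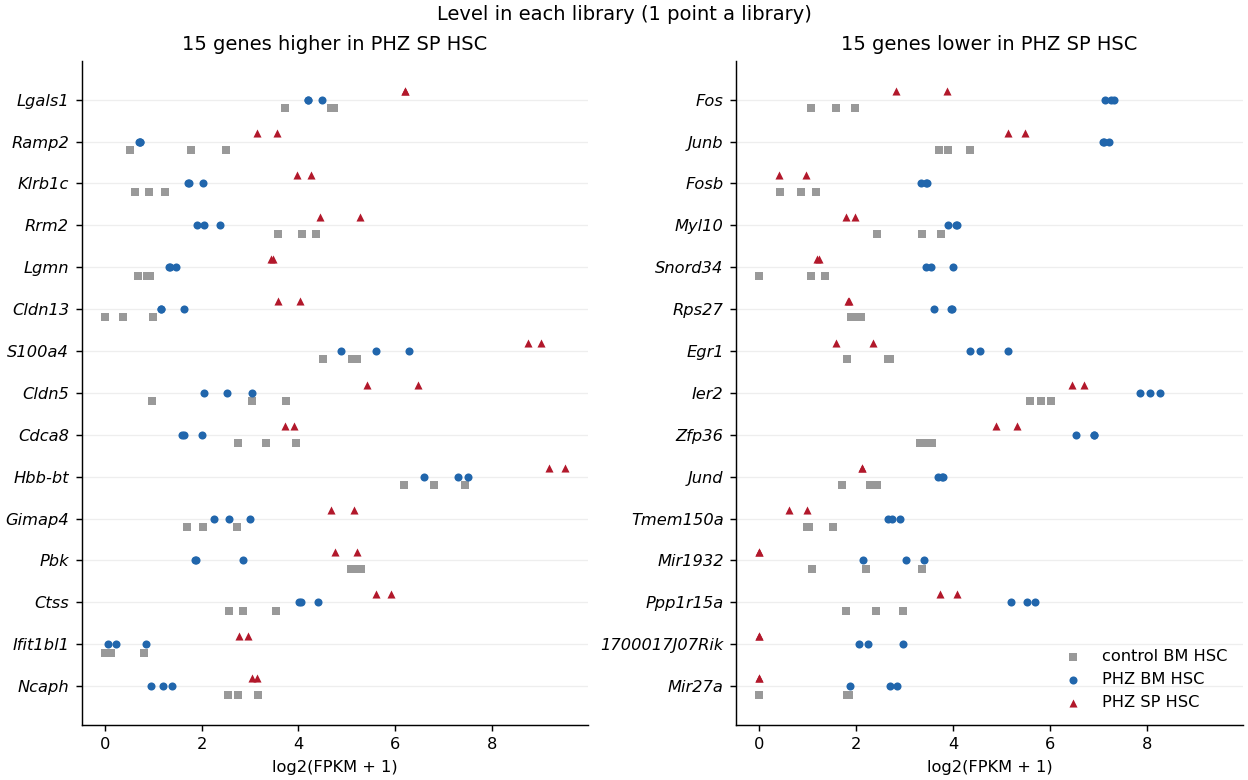
The level of the 15 called genes with the smallest p in each direction is shown as log2(FPKM + 1), with 1 point for each library of PHZ BM HSC, PHZ SP HSC and control BM HSC. Spleen and marrow libraries of PHZ-treated mice do not overlap in any of the 30 genes, and for Fos, Junb and Zfp36 the spleen libraries lie between both marrow groups. Control levels come from a table brought to the same scale afterwards, which lacks 1700017J07Rik.

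Mitotic genes made up the largest called group. Of 64 genes in a list of mitosis and kinetochore genes, 59 were tested, 27 were called higher and none lower. The median difference was 1.35, 58 of the 59 lay above 0, and in 55 both spleen libraries lay above every marrow library. Pbk, a kinase active in mitosis that lies on chromosome 14 from 65805911 to 65817822, was at 2.71, 2.62 and 6.21 FPKM in marrow and 25.9 and 35.8 FPKM in spleen, a difference of 2.78 (SE 0.33, adjusted p = 0.0099). Both spleen libraries were above the highest marrow library. Marrow replicate 3 was above the other marrow libraries in many of these genes, and for the sum of all 64 it held 362 FPKM, with 260.5 and 311.5 FPKM in replicates 1 and 2 and 745 and 793 FPKM in the spleen libraries.

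The kinetochore, which ties chromosomes to the spindle, was represented by all 4 subunits of the NDC80 complex. Ndc80 was at 0.314, 1.14 and 1.41 FPKM in marrow and 7.57 and 6.62 FPKM in spleen. Nuf2 differed by 1.54, Spc24 by 2.19 and Spc25 by 1.79, and these 3 were called as well. Among the genes of centromere and kinetochore proteins, Cenpa, the histone H3 variant of centromeres, was at 8.13, 10.7 and 7.75 FPKM in marrow and 23.2 and 24.8 FPKM in spleen, a difference of 1.35 (adjusted p = 0.0229). Cenpk and Cenpm were called, while Cenpe, Cenpf, Cenph and Cenpn had differences between 0.69 and 1.42 and were not.

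The chromosomal passenger complex, which corrects wrong attachments, was called in part. Cdca8, encoding borealin, was at 2.11, 2.02 and 3.01 FPKM in marrow and 13.9 and 12.2 FPKM in spleen, a difference of 2.07 (SE 0.23, adjusted p = 0.00865). Birc5, encoding survivin, was called at 2.07. Aurkb, its kinase, was at 1.15, 3.77 and 5.54 FPKM in marrow and 20.1 and 6.48 FPKM in spleen, so that the spleen libraries lay far apart and the gene missed the threshold. The mitotic kinases Aurka and Plk1 were called higher, with differences of 2.07 and 1.85. Cdk1, Ccnb1 and Ccnb2, the kinase and cyclins that drive entry into mitosis, had differences of 1.34, 1.34 and 1.81 and adjusted p between 0.0717 and 0.129. The cyclin Ccna2, active from S phase on, was called at 2.23.

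Condensin genes, which compact chromosomes, followed the same pattern. Ncaph was at 0.928, 1.29 and 1.62 FPKM in marrow and 7.90 and 7.25 FPKM in spleen. Smc2 was at 2.75, 3.29 and 3.17 FPKM in marrow and 10.9 and 11.2 FPKM in spleen, both called, while Ncapg and Smc4 were not. Targets and activators of the anaphase promoting complex were among the calls, with Cdc20 at 28.6 and 46.4 FPKM in spleen against 7.03 to 15.7 FPKM in marrow and Ube2c at 15.4 and 25.1 FPKM against 3.32 to 5.40 FPKM. The exception in direction was Pttg1, securin, at 24.1, 24.4 and 20.6 FPKM in marrow and 18.1 and 19.0 FPKM in spleen, a difference of -0.30 that was not called. Mki67, the common marker of cycling cells, reached 1.34 with an adjusted p of 0.0524.

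The Ube2c promoter above held 6 matches to CCAAT and 1 to TTTGAA. In the mitosis list, 38 of 54 promoters held CCAAT (70.4%) and 20 of 54 held TTTGAA (37.0%), against 35.8% and 10.9% of the promoters of all genes tested. Both motifs are long known from cell cycle promoters.

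Genes of DNA replication gave fewer calls. Of 50 genes, 48 were tested and 4 called higher, with a median difference of 0.76 and with both spleen libraries above all marrow libraries in 33. Rrm2, the regulated subunit of the reductase that makes deoxynucleotides, was at 2.75, 3.15 and 4.18 FPKM in marrow and 37.6 and 20.9 FPKM in spleen, a difference of 2.75 (SE 0.28, adjusted p = 0.00714). Its partner Rrm1, which is stable through the cycle, was at 7.97 to 12.3 FPKM in marrow and 22.2 and 21.2 FPKM in spleen and fell just outside the threshold (adjusted p = 0.0524). Tyms, which makes thymidylate, was called at 1.19 and Ccne1, the cyclin of the G1 to S transition, at 1.67. Uhrf1, which takes part in the upkeep of DNA methylation on new strands, was called at 1.61. The MCM helicase genes Mcm2 to Mcm7 had differences from 0.14 to 1.24, none of them called. Mcm7 was at 26.6 to 30.8 FPKM in marrow and 29.4 and 32.7 FPKM in spleen, with overlap. Without PHZ BM HSC replicates 1, 2 and 3 the replication list had 1, 1 and 9 calls, and without PHZ SP HSC replicates 1 and 2 it had 1 and 3.

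The number of mitotic calls depended on each library. It was 3, 11 and 19 without PHZ BM HSC replicates 1, 2 and 3, and 6 and 14 without PHZ SP HSC replicates 1 and 2, while the median of the list stayed between 1.25 and 1.52. On a single scale with the control table, the summed FPKM of the 59 mitotic genes was 254 to 356 in PHZ BM HSC, 727 and 770.0 in PHZ SP HSC and 660 to 1119 in control BM HSC. The spleen libraries thus lay within the range of the control marrow libraries, and PHZ BM HSC lay below both. For the 48 replication genes the sums were 389 to 588, 689 to 805 and 776 to 1002 in the same order. Pbk was at 36.5, 33.0 and 38.1 FPKM in control BM HSC. No test against control BM HSC was made here.

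**Figure D3:**
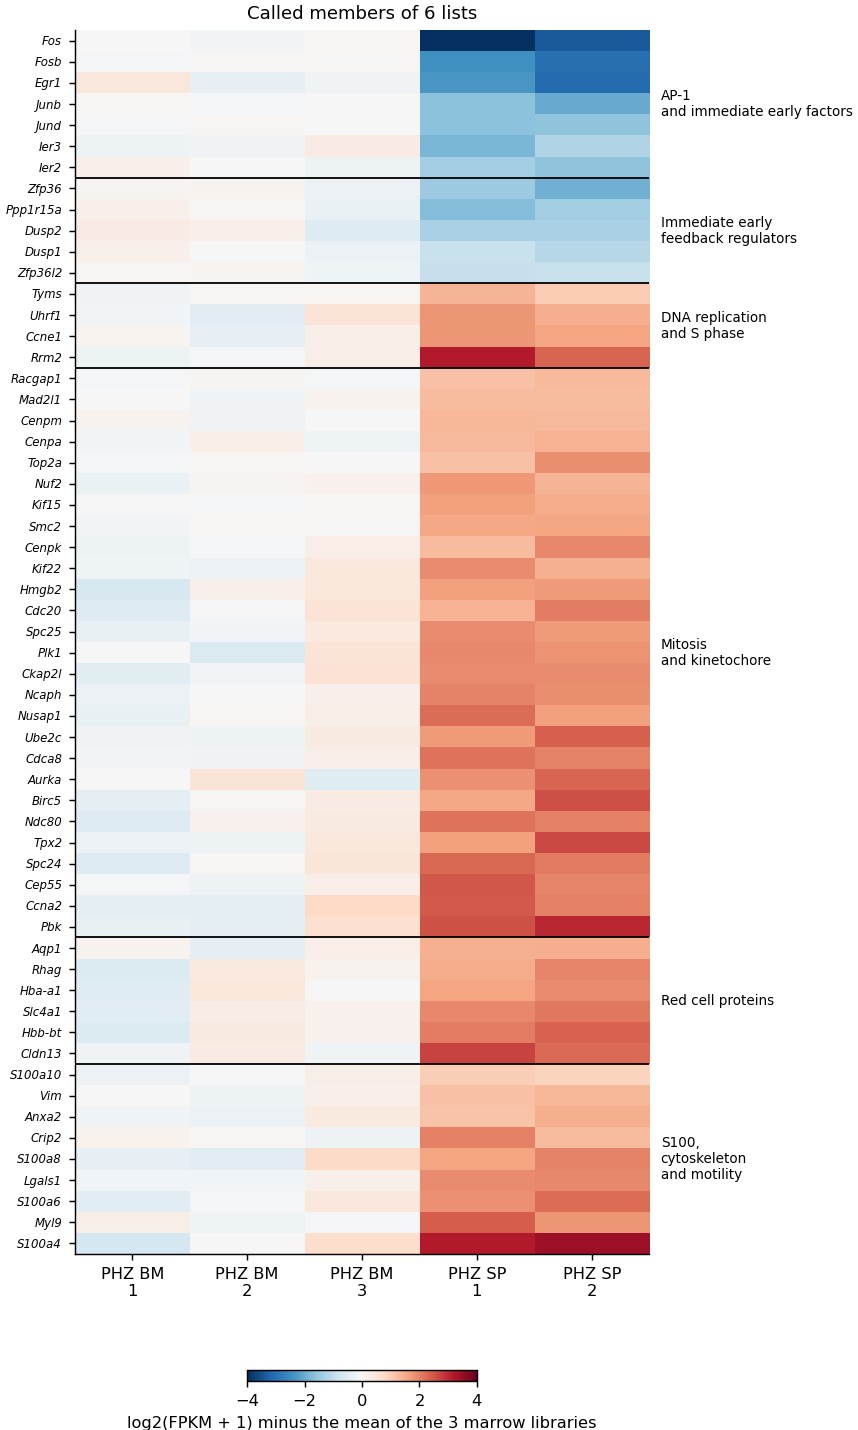
Each row is a called member reported here of 6 gene lists and each column a library of PHZ-treated mice, coloured by log2(FPKM + 1) minus the mean of the 3 marrow libraries. All 12 immediate early members are below the marrow mean in both spleen libraries, and the called members of the other 4 lists are above it in both.

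Several red cell genes were called higher in spleen HSCs, among them globins and membrane proteins. Of 34 genes, 27 were tested and 7 called higher, with none lower, and the median difference was 0.92. The adult beta globin gene Hbb-bt, on chromosome 7 from 103812524 to 103813923, was at 95.5, 180.1 and 156 FPKM in marrow and 579.9 and 726 FPKM in spleen, a difference of 2.21 (SE 0.26, adjusted p = 0.00982). Hba-a1, an alpha globin gene, was at 68.5, 132 and 97.4 FPKM in marrow and 291 and 355 FPKM in spleen. Marrow HSC libraries thus also held globin RNA, and no marrow library reached the level of a spleen library. Globin genes have near-identical copies, and since the handling of shared reads is not stated, the split between copies is uncertain. Hbb-b1, outside the list as named and chosen after its values were seen, was called as well, at 202 to 449.8 FPKM in marrow and 1136 and 1336 FPKM in spleen.

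Some membrane and transport proteins of the red cell were called as well. Slc4a1, the band 3 anion exchanger, was at 2.86, 5.53 and 5.01 FPKM in marrow and 19.1 and 21.8 FPKM in spleen, a difference of 2.01. Cldn13, a claudin transcribed in mouse erythroid cells, was at 1.25, 2.10 and 1.22 FPKM in marrow and 15.3 and 11 FPKM in spleen, a difference of 2.49 (SE 0.26, adjusted p = 0.00714). None of these genes overlapped between tissues. Rhag, which forms the Rh complex, and the water channel Aqp1 were also called. The other membrane genes of the list were not called. Icam4, an adhesion molecule of red cells, was at 9.70 to 13.97 FPKM in marrow and 3.95 and 9.29 FPKM in spleen, a difference of -0.86, and Epb41, Epb42, Gypc and Xk overlapped between the tissues. Spectrin and adducin genes stayed low in both tissues, with Add2 at 0.169 to 0.371 FPKM in marrow and 1.95 and 1.52 FPKM in spleen, uncalled. Car1, an erythroid carbonic anhydrase, was at 80.6 FPKM in spleen replicate 1 and 16.1 FPKM in replicate 2, so that replicate 2 lay below marrow replicate 3 at 20.2 FPKM.

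Transcription factors of the erythroid program gave 1 call. Of 28 factors and components of erythropoietin signalling, all tested, Klf1 alone was called higher and none lower, while 21 lay below 0 and the median was -0.36. Klf1, which activates beta globin and many red cell genes through CACCC boxes, was at 3.48, 1.95 and 2.21 FPKM in marrow and 10.1 and 8.48 FPKM in spleen, a difference of 1.56 (SE 0.26, adjusted p = 0.0312). This call was kept without PHZ SP HSC replicate 2 and lost without any other single library, with an adjusted p of at most 0.1265 over all alternatives. The Hbb-bt promoter above held CACCC at 3 places, at -140, -104 and -89. Among promoters of the red cell list 15 of 24 held CACCC, close to the 56.4% of all promoters, and 4 of 24 held the GATA motif AGATAA (16.7%), against 5.96% of all. Gata1 was at 2.54, 6.34 and 6.23 FPKM in marrow and 8.59 and 6.14 FPKM in spleen, and Gata2, its counterpart in stem cells, at 66.2 to 86.4 FPKM and 58.0 and 72.4 FPKM, both with overlap. Epor, the erythropoietin receptor, was at 1.58, 4.18 and 1.74 FPKM in marrow and 11.02 and 4.56 FPKM in spleen (adjusted p = 0.161). Both spleen libraries were above all marrow libraries in 3 of the 28 genes and below them in 12, against 17.4% of all genes tested, among which Ldb1, the bridging factor of the GATA1 complex, was at 13.3 to 16.7 FPKM in marrow and 7.93 and 5.86 FPKM in spleen (adjusted p = 0.0524). Spi1, encoding PU.1, was at 44.0 to 51.8 FPKM in marrow and 47.4 and 42.7 FPKM in spleen.

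Heme synthesis and iron handling had no calls. Of 18 heme genes tested, 14 differed upward and the median was 0.24. Alas2, the erythroid enzyme of the first step, was at 2.65, 5.41 and 3.23 FPKM in marrow and 5.81 and 7.07 FPKM in spleen (adjusted p = 0.264). Of 20 iron genes tested the median was -0.07. Tfrc, the transferrin receptor that takes up iron, was at 3.57, 3.14 and 5.15 FPKM in marrow and 9.48 and 11.2 FPKM in spleen. Its difference of 1.21 (SE 0.24) missed the threshold with an adjusted p of 0.0542, and both spleen libraries were above all marrow libraries. Slc25a37, the mitochondrial iron importer mitoferrin, was at 6.20 to 6.65 FPKM in marrow and 6.44 and 11.4 FPKM in spleen, and Ftl1, the light chain of ferritin, at 760 to 854 FPKM and 620 and 567 FPKM. Ermap, an erythroid membrane protein, reached 1.30 with an adjusted p of 0.0669. Of the enzymes that oxidise methylcytosine, Tet1 differed by 0.02, Tet2 by -0.16 and Tet3 by -0.44, with adjusted p between 0.414 and 0.984.

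Markers of erythroblasts, which overlap with the red cell list, were called higher in part. Of 20 markers, 16 were tested, all 16 differed upward and 8 were called, with 10 of the 16 shared with the red cell list. The summed level of those in the tables was 189.5 to 351.4 FPKM in marrow and 980.5 to 1197 FPKM in spleen, and none of the 17 listed in the tables was at 0 in all libraries. Ter119, which marks erythroblasts, was part of the lineage cocktail of the sort. The part of such cells in the red cell result was not tested. Without single libraries the 7 red cell calls became 4, 5 and 4 (PHZ BM HSC replicates 1, 2 and 3) and 2 and 3 (PHZ SP HSC replicates 1 and 2).

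Several S100 calcium-binding, galectin and cytoskeletal genes were called higher in spleen. Of 41 genes in the list 39 were tested and 9 called higher, with none lower and a median of 0.54. S100a4, a regulator of myosin and cell movement on chromosome 3 from 90603770 to 90606045, was at 28.4, 47.3 and 77.4 FPKM in marrow and 427.8 and 512 FPKM in spleen, a difference of 3.29 (SE 0.35, adjusted p = 0.00714). Lgals1, galectin-1, was the called gene with the smallest p among those higher in spleen, with 17.3, 17.4 and 21.4 FPKM in marrow and 72.2 and 73.0 FPKM in spleen, a difference of 1.91 (SE 0.17, adjusted p = 0.00588). Vim, the intermediate filament vimentin, was at 113, 96.6 and 128 FPKM in marrow and 251 and 284 FPKM in spleen. None of these 3 genes overlapped between the tissues. S100a6 was called at 2.03, and S100a10 and its partner annexin A2 (Anxa2), which form a complex at membranes, were called at 0.94 and 1.29.

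The general actin genes overlapped between the tissues. Actb was at 1086 to 1422 FPKM in marrow and 1087 and 1136 FPKM in spleen, and Actg1, Flna and Myl6 also overlapped. Myl9, a light chain of contractile myosin, was called but low, with at most 0.328 FPKM in marrow and 5.01 and 2.79 FPKM in spleen. S100a1 was at 91.0 to 116 FPKM in marrow and 86.0 and 77.1 FPKM in spleen, so that not all S100 genes were higher. The number of calls in this list was 3, 3 and 10 without PHZ BM HSC replicates 1, 2 and 3, and 1 and 5 without PHZ SP HSC replicates 1 and 2.

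Markers of neutrophils gave 3 calls in the same direction. Of 20 markers 19 were tested and 3 called higher (Camp, Ltf and S100a8), with a median of 1.26. The calls became 1, 1 and 5 without PHZ BM HSC replicates 1, 2 and 3, and 0 and 1 without PHZ SP HSC replicates 1 and 2. The summed level of all 20 was 543 to 1140 FPKM in marrow, the highest in replicate 3, and 1500 to 1940 FPKM in spleen, and none of the markers was at 0 in all libraries. S100a8, which with S100a9 forms calprotectin and belongs to both lists, was at 158, 144 and 338 FPKM in marrow and 587 and 780.8 FPKM in spleen. Camp, an antimicrobial peptide of secondary granules, was at 10.9, 14.6 and 23.6 FPKM in marrow and 62.5 and 68.1 FPKM in spleen, whereas Prtn3, of primary granules, was at 169 to 212 FPKM and 111 and 132 FPKM and Csf3r, the G-CSF receptor, at 9.596 to 14.9 FPKM and 7.64 and 5.21 FPKM. The neutrophil markers therefore did not all share a direction. Gr-1, which marks neutrophils, was in the lineage cocktail, and the part of neutrophil RNA in the S100 result was not tested. Of its genes, Ly6g was at 0.652 to 2.53 FPKM in marrow and 3.04 and 8.11 FPKM in spleen, uncalled (adjusted p = 0.182). Ly6c1 was at 0.127 to 0.412 FPKM and 6.46 and 1.59 FPKM, also uncalled (adjusted p = 0.094). In both, the spleen libraries lay above all marrow libraries. The related gene Ly6c2, not counted among the gate genes below, was at 1.15 to 2.22 FPKM and 1.99 and 4.88 FPKM, with overlap (adjusted p = 0.345).

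**Figure D4:**
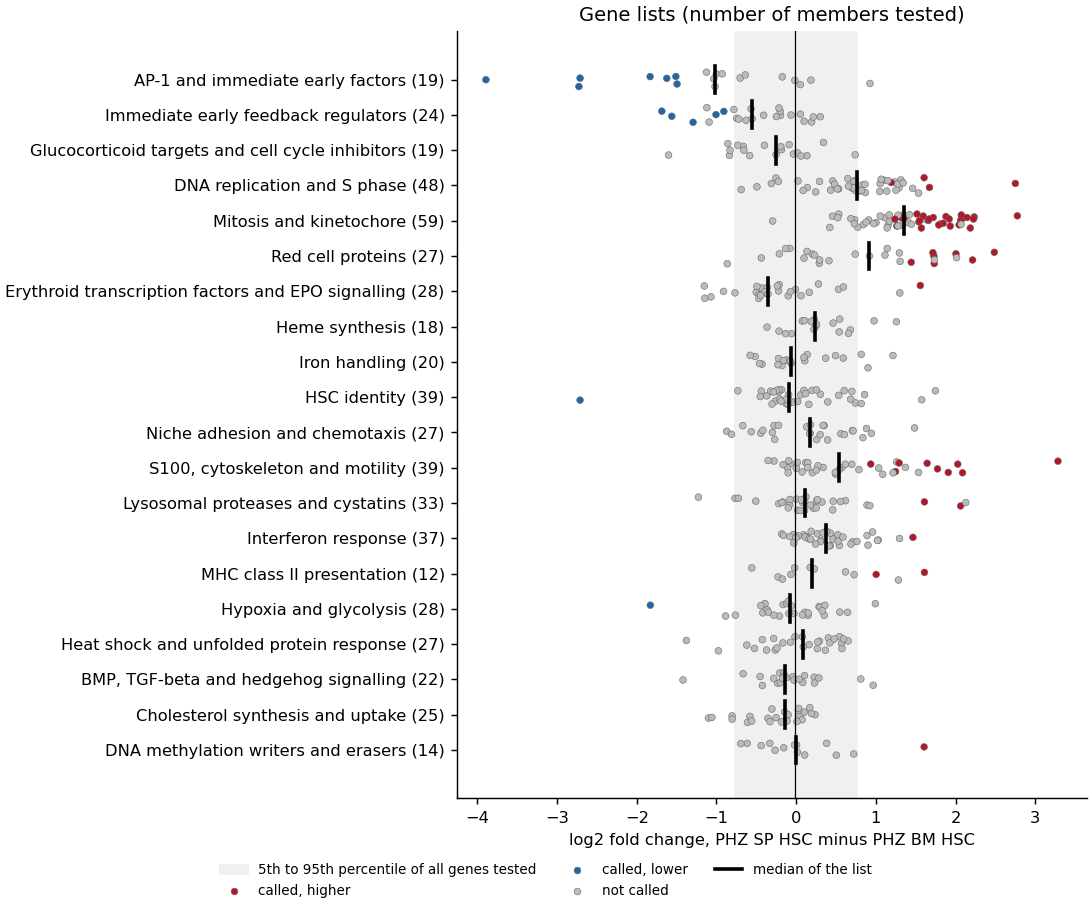
The log2 fold change of each tested member is shown for 20 gene lists as a point, coloured by its call, with a bar at the median of the list and a grey band for the 5th to 95th percentile of all genes tested. The medians of the mitosis list (1.35) and of the immediate early factor list (-1.02) lie outside the band.

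Lysosomal and antigen presentation genes gave few calls. Of 33 lysosomal genes tested 2 were called higher, and the median was 0.11. Lgmn, the protease legumain, was at 1.56, 1.51 and 1.78 FPKM in marrow and 10.1 and 9.82 FPKM in spleen, a difference of 2.06 (SE 0.22, adjusted p = 0.00714). Ctss, cathepsin S, which trims the invariant chain of MHC class II, was at 15.1, 15.5 and 20.1 FPKM in marrow and 47.7 and 59.4 FPKM in spleen. Cd74, the invariant chain itself, was at 72.4, 55.0 and 61.0 FPKM in marrow and 125 and 128 FPKM in spleen, a difference of 1.004 (adjusted p = 0.0312). The call of Cd74 was kept without PHZ BM HSC replicate 3 and lost without any other single library, with an adjusted p of at most 0.1301 over all alternatives. The class II genes H2-Aa and H2-Ab1 overlapped between tissues, with H2-Aa at 22.1 to 40.6 FPKM in marrow and 39.9 and 35.7 FPKM in spleen. Macrophage markers were called in neither direction, with 12 of the 24 in the tables below 1 FPKM in every library, among them Adgre1, Csf1r and Vsig4. Their sum was 205.9 to 269.2 FPKM in marrow and 359.8 to 360.2 FPKM in spleen, most of it Lyz2. The markers did not share a direction, with 5 of the 9 tested above 0 and 4 below. Cd68 was at 4.92, 9.75 and 16.6 FPKM in marrow and 34.5 and 57.2 FPKM in spleen (adjusted p = 0.0517). C1qb was at 0.612, 3.53 and 1.55 FPKM in marrow and 0.0823 and 0 FPKM in spleen (adjusted p = 0.170).

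Interferon-induced genes gave 1 call. Of 37 tested, Gbp3, an interferon-induced GTPase, was called higher at 1.47, with 7.03, 6.53 and 7.45 FPKM in marrow and 22.1 and 20.1 FPKM in spleen, and 31 of the 37 lay above 0 with a median of 0.38. The call of Gbp3 was lost without PHZ BM HSC replicate 1 or PHZ SP HSC replicate 1. Iigp1, another such GTPase, missed the threshold (adjusted p = 0.0511). Ifit1 was at 17.6 FPKM in spleen replicate 1 and 4.20 FPKM in replicate 2, and overlapped the marrow range of 3.76 to 4.98 FPKM. Ifit1bl1, a relative of Ifit1 that is no member of the list, was among the 15 higher genes with the smallest p, at 0.0421, 0.801 and 0.17 FPKM in marrow and 5.86 and 6.76 FPKM in spleen.

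Klrb1c, which encodes the NK1.1 antigen, was called higher with 2.30, 3.07 and 2.33 FPKM in marrow and 14.7 and 18.3 FPKM in spleen, a difference of 2.29 (SE 0.22, adjusted p = 0.00624). It was 1 of 4 NK cell markers tested, and 8 of the 16 in the tables stayed below 1 FPKM in every library, including Ncr1, Prf1 and Klrk1. Nkg7, a granule protein, was at 27.8 to 45.4 FPKM in marrow and 26.9 and 27.7 FPKM in spleen. None of the other 3 NK cell markers tested was called. Of T cell markers, Cd3e, Cd3g, Cd4 and Cd8a were below 1 FPKM in every library. Among 5 B and plasma cell markers tested Jchain alone was called, at 0.823 to 0.889 FPKM in marrow and 3.06 and 6.18 FPKM in spleen, and the dendritic cell list had 1 call, Ly6d, at 0.43 to 2.06 FPKM in marrow and 18.8 and 9.49 FPKM in spleen. Pax5 and Ebf1, defining B cell factors, stayed below 1 FPKM. Jchain kept its call without PHZ SP HSC replicate 1 and lost it without any other single library, and the call of Ly6d was lost without PHZ BM HSC replicate 1 or PHZ SP HSC replicate 1. The summed level of all markers in the tables, tested or not, was 30.9 to 36.3 FPKM in marrow and 57.0 to 62.5 FPKM in spleen for B and plasma cells, 12.8 to 14.1 FPKM and 19.9 to 24.9 FPKM for T and innate lymphoid cells, and 95.1 to 115 FPKM and 126 to 138 FPKM for dendritic cells. All 3 sums were higher in both spleen libraries than in every marrow library. The sum of NK cell markers was at 36.6 to 53.2 FPKM and 53.4 to 55.3 FPKM, and over the 4 tested alone the tissues overlapped. The lineage cocktail of the sort also held antibodies against B220, CD2, CD3 and CD8. The part of lymphoid and dendritic cells in the results was not tested.

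**Figure D5:**
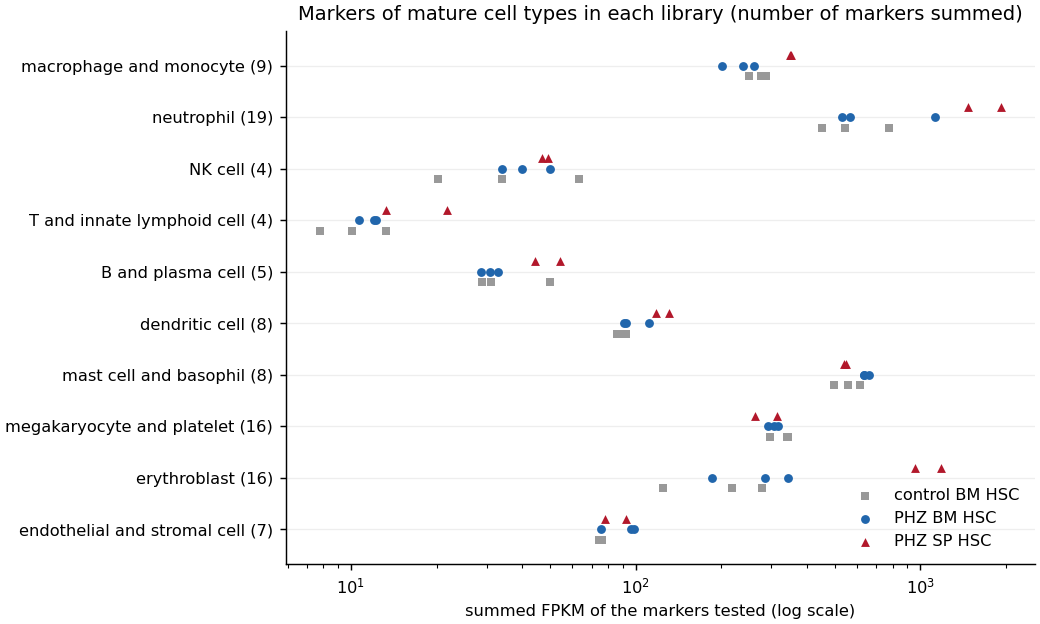
The summed FPKM of the tested markers of 10 mature cell types is plotted on a log axis, with 1 point for each library. The sums of erythroblast, neutrophil, macrophage, B cell, T cell and dendritic cell markers are higher in both spleen libraries than in every PHZ BM HSC library, and PHZ BM HSC replicate 3 has the highest neutrophil sum of the marrow libraries.

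Genes of HSC identity gave 1 call. Of 39 genes, all tested, Egr1 alone was called, and the median was -0.09. Procr, which encodes the HSC marker EPCR, was at 77.0, 66.9 and 52.0 FPKM in marrow and 87.0 and 73.3 FPKM in spleen. Kit, the receptor of the sort gate, was at 87.0 to 141 FPKM in marrow and 103 and 83.0 FPKM in spleen, and Ly6a, which encodes Sca-1, at 95.3 to 175 FPKM and 176 and 233 FPKM. Kit and Ly6a, on which the gate selects, were thus expressed in all 5 libraries. Of the 7 gate genes tested none was called, and in 6, all but Kit, both spleen libraries lay above all marrow libraries, with a median difference of 0.86. Slamf1 (CD150) was at 2.25 to 4.09 FPKM in marrow and 6.83 and 6.06 FPKM in spleen. Cd48, which the gate takes as negative or low, was at 2.24, 0.179 and 3.36 FPKM in marrow and 7.08 and 8.11 FPKM in spleen, a difference of 1.75 that was not called (SE 0.49, adjusted p = 0.128).

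Adhesion and homing genes gave no call among 27 tested. Cxcr4, the receptor for the marrow chemokine CXCL12, was at 15.1, 17.8 and 16.2 FPKM in marrow and 6.39 and 20.9 FPKM in spleen, so that spleen replicates fell on either side of marrow. Itga4, the alpha chain of VLA-4, was at 5.32 to 6.85 FPKM in marrow and 6.97 and 6.81 FPKM in spleen. Jam2, an adhesion molecule of the junctional family, came nearest to the threshold at 1.49 (adjusted p = 0.0506), followed by the integrin chain Itgb7 at 0.88 (adjusted p = 0.0653). Lists of BMP, TGF-beta and hedgehog signalling (22 tested, median -0.14), of heat shock and the unfolded protein response (27 tested, median 0.09) and of cholesterol synthesis (25 tested, median -0.14) had no calls either. In the hypoxia and glycolysis list Pfkfb4 was called lower, at 2.16 to 5.61 FPKM in marrow and 0.241 and 0.584 FPKM in spleen, a call kept without PHZ BM HSC replicate 3 and lost without any other single library. Bmp4, a ligand known from splenic stress erythropoiesis, was at 2.70 to 2.99 FPKM in marrow and 10.2 and 3.99 FPKM in spleen (adjusted p = 0.191). Markers of mast cells (8 tested), megakaryocytes (16) and endothelial cells (7) had no calls.

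Among the 15 genes lower in spleen with the smallest p were several outside any list. Myl10, a myosin light chain, was at 15.6, 16.0 and 13.9 FPKM in marrow and 2.46 and 2.94 FPKM in spleen, a difference of -2.13. Rps27, a ribosomal protein gene with near-identical copies whose reads may be split, was at 14.8, 11.2 and 14.5 FPKM in marrow and 2.58 and 2.62 FPKM in spleen. Tmem150a, a membrane protein gene, differed by -1.97. Others were small RNA genes, and these rest on few reads. Of the 56 genes called lower, 7 were microRNA and 2 small nucleolar RNA genes, out of 92 and 43 such genes tested. Of the 98 called higher, 1 was a microRNA gene. Snord34, which lies in an intron of Rpl13a, had at most 11 reads in a library. For Mir1932 both spleen libraries were at 0 and marrow had 4 to 9 reads. Its mean marrow level was 2.17-fold a floor of 3 reads per library. The long noncoding gene 1700017J07Rik, with 14 to 34 reads in marrow and 0 in spleen, lay at 7.80-fold the floor. Mir27a, with 3 to 5 reads in marrow, lay at 1.49-fold the floor. The ratio was 1.22-fold for Mir7007 and 1.05-fold for Mir5620. These ratios leave out the counting error of the marrow reads, so they are not lower limits of the fold change. Mir351 (lower) and Mir1964 (higher) were called although their levels lay at or under the floor, so no fold is given for them. These values are reads over the annotated locus and do not measure mature microRNA, which the poly(A)-based protocol does not capture.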

How the data were processed

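RNA of sorted HSCs was made into libraries by SMART-Seq2 and Nextera XT. The authors aligned reads with STAR to mm10 and deposited FPKM tables, with the names of STAR and DESeq2 taken from the submitters' processing notes. The read counter, annotation and strand setting are not given in the sources used here. The deposited columns of bone marrow HSCs are named WBM. The authors' DESeq2 comparison columns (log2 fold changes, standard errors and p-values) were not used.

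Both PHZ tables were joined by Entrez gene ID, and symbols, positions and promoters came from RefSeq (GRCm38). All 110442 FPKM values above 0 could be divided into whole reads, within 0.0001 of a read (0.001 for the highest genes), which gave reads per gene and showed that the 5 PHZ libraries shared a scaling. The control table was scaled separately, and control levels were set on a common scale over all 8 libraries, a rescaling of at most 1.06% for any library. limma 3.58.1 in R 4.3.3 (trend and robust options) was fitted to log2(FPKM + 1) of the 5 PHZ libraries for genes of at least 1 FPKM in 2 or more libraries, without covariates, and p-values were adjusted by the Benjamini-Hochberg method over all 10827 genes. The procedure was tested on simulated data. Depth was 9240149 to 13201359 reads per library. Without molecular identifiers, floors in reads cover counting error only.

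The gene lists and the genes named were chosen with earlier results of these data known. Named were the 15 genes of smallest p in each direction, up to 4 members of smallest p per list, up to 4 markers of highest level per marker list, and a set of erythroid, iron, gate, Tet and cell cycle inhibitor genes. Some list members that enter the counts are not reported here by name. Other list members named were chosen after their values were seen. Alternatives were all 8 libraries in 1 fit, equal totals without Rn45s, a mean of at least 5 FPKM, no filter, a pseudocount of 0.1, a replicate block, voom on the recovered reads, no robust option, and leaving out each library.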

Additional observations from a re-analysis of the deposited data

How the results depend on the processing

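Every one of the called genes that an alternative tested kept its direction there. The number of genes called was 113 with all 8 libraries in 1 fit, 175 with equal totals without Rn45s, 128 at a mean of at least 5 FPKM and 136 without the robust option, against 154. It was 92 (48 higher and 44 lower) with a pseudocount of 0.1 FPKM and 120 (95 higher and 25 lower) with voom on the recovered reads. With no filter on low values 16136 genes were tested by limma and 0 were called, 0 higher and 0 lower, with 2209 at an unadjusted p below 0.05 and 0.0574 as the adjusted p of Fos. Leaving out 1 library gave 32 to 196 genes called, 20 to 106 higher and 11 to 109 lower, and the cause was not tested. The share of calls that were higher was 44.4% without either spleen library. Replicate numbers 1 and 2 occur in both tissues, without a label that ties them to an animal or batch, and deviations of same-numbered libraries correlated at 0.033 and 0.0056. With the replicate number as a block, 423 genes were called, 267 higher and 156 lower. PHZ BM HSC replicate 3 has no spleen library of its number, so it did not enter the block contrast. Few libraries were then left to estimate the spread, and the larger count is not stronger evidence.

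Some uncalled genes turned direction. Under the block Sdc1 was at -0.0754 and Tet1 at -0.0276, and with voom Id2 was at -0.0376.
Leaving out 1 library at a time, the log2 fold change ranged for Lck from -0.0418 to 1.46, for Cdkn1c from -1.91 to 0.19, for Slc25a37 from -0.000767 to 0.74, for Ccl5 from -0.24 to 1.42, for Cxcr4 from -1.23 to 0.34, for Gata3 from -0.47 to 0.0527, for Sdc1 from -0.0754 to 0.50, for Cd244a from -0.89 to 0.36, for Emcn from -0.0246 to 0.27, for Eif2s3y from -0.33 to 0.12, for Spi1 from -0.15 to 0.002398, for Id2 from -0.38 to 0.50 and for Tet1 from -0.16 to 0.19.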

Other observations

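Of the called genes, 40 that were higher and 43 that were lower belonged to no list, and those named here, apart from Ramp2, Cldn5 and Gimap4 among the 15 higher genes of smallest p, were chosen after their values were seen. A pair of receptor-modifying proteins moved apart. Ramp2, which with the calcitonin receptor-like receptor forms a receptor for adrenomedullin, was at 0.636, 0.661 and 0.660 FPKM in PHZ BM HSC and 10.9 and 7.88 FPKM in PHZ SP HSC. Ramp1, which gives the same receptor its affinity for CGRP, was at 110.3, 113 and 72.9 FPKM in marrow and 47.7 and 40.6 FPKM in spleen. The adaptors Dok2 and Dok3 also moved apart, with log2 fold changes of 2.03 and -2.33. Claudin-5 (Cldn5), a tight junction protein, was at 3.16, 4.74 and 7.21 FPKM in marrow and 41.7 and 87.1 FPKM in spleen, while markers of endothelial cells had no calls. Gimap4, a GTPase of immune cells, was at 3.78, 7.02 and 4.93 FPKM in marrow and 24.5 and 34.6 FPKM in spleen.

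Chemokines differed in direction as well. Cxcl10, an interferon-induced chemokine, was at 0.178, 0.265 and 0.525 FPKM in marrow and 4.34 and 8.84 FPKM in spleen, a log2 fold change of 2.46. Ccl3, a myeloid chemokine, was at 48.1, 50.5 and 17.3 FPKM in marrow and 6.54 and 7.48 FPKM in spleen, a log2 fold change of -2.17. Both genes were called, and in neither did the tissues overlap. Lag3, an inhibitory receptor, fell by 1.22 and Gem, a small GTPase, rose by 1.58. Ctla2a, a cysteine protease inhibitor with the close relative Ctla2b, was at 210.3, 240.1 and 379 FPKM in marrow and 88.7 and 69.4 FPKM in spleen, and the split of reads between both genes is uncertain.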
